A study of Mus musculus with 8 samples.

Results

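The comparison set the 2 libraries labelled Zmynd11 knockout at 0 h (KO 0 h) against the 2 libraries labelled WT at 2 h (WT 2 h), which are 4 of the 8 libraries of the study. These groups were chosen because the levels of Zmynd11 and Ifit1 in both go against their labels. The cells are NIH3T3, an immortalised mouse embryonic fibroblast line of Swiss albino origin, grown in DMEM with 10% donor bovine serum, and RNA was sequenced in pairs of reads. By label, the KO 0 h libraries come from CRISPR-edited cells that received no agent, and the WT 2 h libraries from unedited cells kept for 2 h in 100 units/ml of recombinant interferon-beta of the mouse (IFN-β). The other 4 libraries are labelled WT without agent (WT 0 h) and knockout with IFN-β for 2 h (KO 2 h). Genotype, time and agent therefore all change together between KO 0 h and WT 2 h, and their parts in a difference cannot be told apart. The labels name no clone and no edited position, the extraction protocol speaks of embryonic fibroblasts where the source field says NIH3T3, and no source states that replicates were separate cultures. The spread behind each p-value is thus that between these libraries and may be technical only.

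Zmynd11 encodes a chromatin reader that binds histone H3.3 when its lysine 36 carries methyl groups, a mark of transcribed gene bodies. IFN-β binds a receptor at the cell surface whose kinases activate STAT proteins, among them Stat2, and these join Irf9 to form a complex that binds the interferon-stimulated response element in promoters of antiviral genes. Fibroblasts respond to it with genes that sense, bind or degrade foreign nucleic acid, and they also make most of the collagen of connective tissue.

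The genes that chose the groups are given as a description, without a test. Zmynd11 stood at 137 and 131 CPM (gene reads scaled to a common library size with composition factors) in the libraries labelled KO 0 h, and at 3.18 and 3.61 CPM in those labelled WT 2 h. It stood at 123 and 120.4 CPM in WT 0 h and 3.31 and 4.69 CPM in KO 2 h, so the levels divided the 8 libraries by labelled time and not by labelled genotype. Ifit1, which binds foreign RNA that lacks host cap marks, stood at 196 and 229 CPM in KO 0 h and 1.73 and 3.95 CPM in WT 2 h. It stood at 1.22 and 1.38 CPM in WT 0 h and 396 and 380.1 CPM in KO 2 h. Ifit1 was thus high in the KO 0 h libraries, labelled as untreated, and low in the WT 2 h libraries, labelled as given IFN-β. The groups keep their labels as names below, so "higher" and "lower" refer to labelled groups.

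Gene reads summed to 15639529 to 19469059 in these 4 libraries and to 13671013 to 21299120 over the series. The library KO 0 h replicate 2 stood apart: 17498 genes had reads there, against 14847 to 15945 in the other 7, and 5389 of them had 1 to 9 reads. In that library 17.3% of all reads lay in no gene, against 12.8% in KO 0 h replicate 1 and 15.8% to 17.2% in the 4 libraries labelled 2 h. Of 23304 gene symbols, 12807 passed a filter on low counts and were tested with edgeR's quasi-likelihood model of all 8 libraries. Genes with a Benjamini-Hochberg adjusted p under 0.05 were called.

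The libraries labelled KO 0 h held more transcript of interferon-induced genes, collagens, DNA replication, mitosis and cholesterol synthesis than those labelled WT 2 h. Most immediate early genes (18 of 25) and Yap targets (10 of 14) were lower in KO 0 h. Col1a1, the main chain of type I collagen, was higher in KO 0 h (9097 against 928 CPM by the group means, n = 2 libraries each), and Ankrd1, a target of the Yap pathway, was lower (152 against 1045 CPM). In such bulk samples fewer cells of a type and less RNA per cell cannot be told apart. Of the 12807 tested genes edgeR called 7723, or 60.3%, of which 4034 (31.5% of those tested) were higher and 3689 (28.8%) lower in KO 0 h. At least 2-fold differences were found for 1147 genes higher (8.96%) and 1284 lower (10%), and at least 8-fold differences for 179 (1.4%) and 245 (1.91%). The levels of the groups did not overlap for 40% of the tested genes in the higher and 38.4% in the lower direction. Without KO 0 h replicate 2, 3688 genes were higher and 3574 lower. With library size alone in place of composition factors the median of all genes shifted by -0.16 on the log2 scale, and 38.4% of the calls were higher in KO 0 h in place of 52.2%. Below, log2 fold changes are KO 0 h minus WT 2 h, and the median over all tested genes was 0.02. Counts of list members called are to be read beside the 31.5% and 28.8% of all tested genes. Groups without overlap are to be read beside the 40% and 38.4%.

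**Figure D1:**
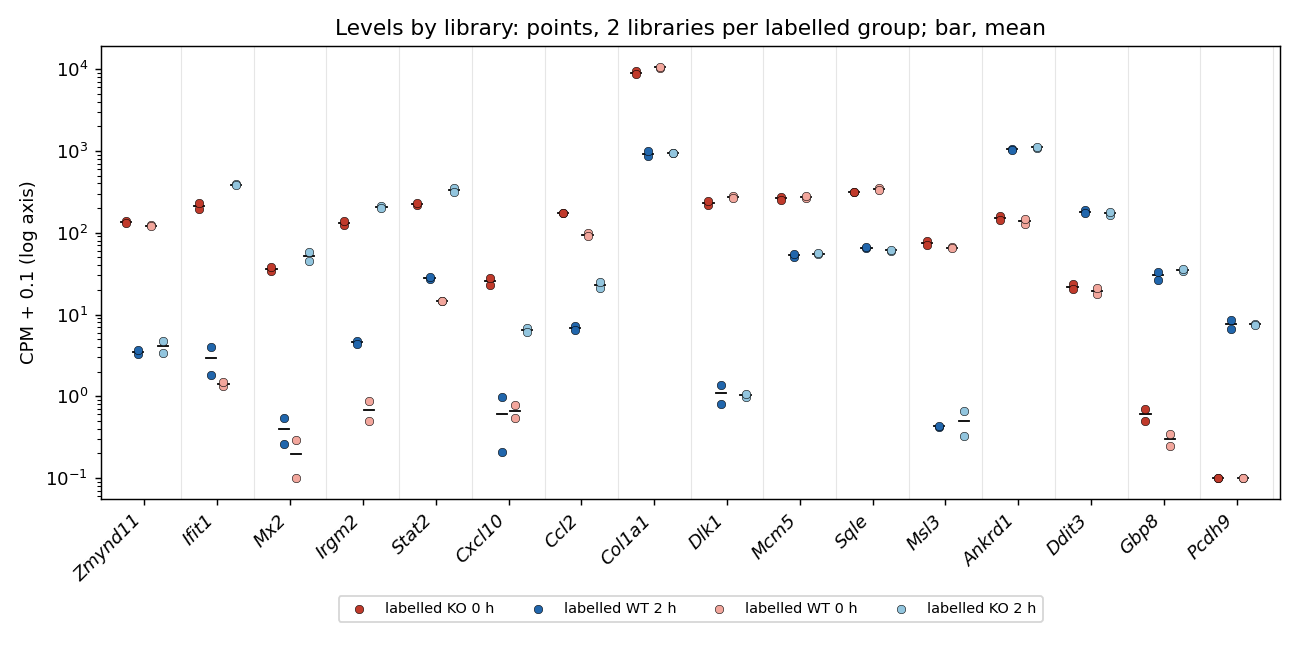
CPM plus 0.1 on a log axis for 16 genes in each of the 8 libraries, with 2 points per labelled group and a bar at their mean. The levels of Col1a1, Dlk1, Mcm5, Sqle, Msl3, Ankrd1, Ddit3 and Pcdh9 divide the libraries by labelled time, while those of Mx2, Irgm2 and Stat2 are high in both groups labelled KO.

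The interferon-related genes were taken as 5 lists with 93 tested members, of which 65 were higher and 12 lower in KO 0 h, with a median log2 fold change of 1.47. Ifit1 is counted among them. Since it chose the groups, the direction of genes that move with it is not independent of that choice. Among the genes of interferon signalling and nucleic acid sensing, 13 of 21 were higher and 2 lower (median 1.10). Stat2 stood at 216 and 230.2 CPM in KO 0 h and 27.4 and 28.5 CPM in WT 2 h, without overlap of the groups. Irf9, the DNA-binding member of the complex, was higher as well (2.09, SE 0.11), as were Irf7 (3.07, SE 0.27), which amplifies interferon production, and Irf1 (2.55, SE 0.11). The RNA sensor Ddx58 stood at 148 and 182 CPM in KO 0 h and 30.6 and 26.3 CPM in WT 2 h, again without overlap. The 2 lower members were the receptor kinase Tyk2 (-0.83) and Irf3 (-0.61), a factor activated by the RNA sensors. The receptor chains did not pass the test, with log2 fold changes of 0.14 for Ifnar1 and -0.11 for Ifnar2.

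The antiviral effectors, a list that counts Ifit1 itself, gave 24 of 28 higher and 2 lower (median 2.81). Mx2, a dynamin-like GTPase that blocks viruses, stood at 33.9 and 37.9 CPM in KO 0 h and 0.162 and 0.445 CPM in WT 2 h (6.86, SE 0.53, edgeR adjusted p = 8.22e-15). Its neighbour Mx1 was lower in level but moved alike, at 4.08 and 5.61 CPM against 0.05396 and 0.167 CPM (5.38, SE 0.82). Isg15, a ubiquitin-like protein joined to other proteins, stood at 70.5 and 64.4 CPM against 3.51 and 3.61 CPM. Ifi44, a cytoplasmic interferon-induced protein, had the largest fold change of the list, from 0.162 and 0.167 CPM in WT 2 h to 33.3 and 43.7 CPM in KO 0 h (7.81, SE 0.61). None of these 4 genes overlapped between the groups, as was the case for 40% of all tested genes in the higher direction. Bst2, which tethers budding virus to the membrane, was lower in KO 0 h (-0.64, SE 0.14). Oas1a (-0.09) and Ifit2 (0.09) did not pass. Members of the Ifit and Oas families share sequence, and reads that map to several places (15.04% to 16.96% of reads in the 4 libraries) are set aside in the deposited files, so their single values are uncertain.

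The promoters of 4 genes are shown because they are the named genes higher in KO 0 h, with the largest log2 fold changes among those with the response element in the 250 bases before the start. They are RefSeq sequences of GRCm38.p6, 5′ to 3′ on the gene's strand, and capitals mark each match to the response element on either strand, searched as GAAA, any 2 bases and GAAA again. They come from chr19:34640639-34640888 on the plus strand for Ifit1, chr11:83020811-83021060 on the minus strand for Slfn8, chr11:49064213-49064462 on the minus strand for Tgtp2 and chr17:36042711-36042960 on the plus strand for Gm6034.
Ifit1: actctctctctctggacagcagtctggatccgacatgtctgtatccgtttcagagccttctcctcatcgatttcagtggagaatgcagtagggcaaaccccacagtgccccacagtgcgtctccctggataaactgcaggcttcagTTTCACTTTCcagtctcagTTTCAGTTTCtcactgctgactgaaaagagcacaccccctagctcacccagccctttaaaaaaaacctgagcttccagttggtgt
Slfn8: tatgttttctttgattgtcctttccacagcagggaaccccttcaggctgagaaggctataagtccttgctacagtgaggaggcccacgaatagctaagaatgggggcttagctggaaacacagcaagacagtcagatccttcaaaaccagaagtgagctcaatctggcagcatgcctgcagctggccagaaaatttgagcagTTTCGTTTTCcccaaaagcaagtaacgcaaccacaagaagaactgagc
Tgtp2: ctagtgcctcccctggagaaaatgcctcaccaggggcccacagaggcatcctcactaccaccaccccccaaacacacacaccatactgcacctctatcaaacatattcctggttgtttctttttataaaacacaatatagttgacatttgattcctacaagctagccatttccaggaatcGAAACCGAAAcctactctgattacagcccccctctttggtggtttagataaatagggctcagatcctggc
Gm6034: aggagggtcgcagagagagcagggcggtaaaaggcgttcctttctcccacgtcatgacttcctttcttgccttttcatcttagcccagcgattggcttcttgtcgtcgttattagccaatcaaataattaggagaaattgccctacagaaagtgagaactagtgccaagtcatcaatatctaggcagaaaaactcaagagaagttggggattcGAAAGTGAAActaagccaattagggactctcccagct
In Ifit1 the matches begin 104 and 85 bases before the start, and in Slfn8, Tgtp2 and Gm6034 the single match begins 48, 70 and 37 bases before it. Slfn8, a member of the Schlafen family, stood at 21.4 and 23.9 CPM in KO 0 h and 0.324 and 0.278 CPM in WT 2 h. Tgtp2, an interferon-inducible GTPase, had 80 reads over the KO 0 h libraries and 1 over the WT 2 h libraries, a ratio of 88.3 (exact 95% interval 15.4 to 3532, counting error only). Gm6034 had 18 reads and 0, which is at least 6.83-fold higher when 3 reads are set for the WT 2 h group. All of these were called, although Gm6034 stood below 1 CPM in each of the 4 libraries compared.

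Over windows of 300 bases, which run from 250 bases before each start to 50 after it, the same letters were found in 3.44% of all 32851 RefSeq promoters and in 2.97% of the 12854 promoters of tested genes. The share was 6.62% among promoters of genes at least 2-fold higher in KO 0 h and 2.58% among those at least 2-fold lower. The genes higher in KO 0 h include Ifit1, which chose the groups. A match is only a match of letters in this window.

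The interferon-inducible GTPases gave 8 of 11 higher and 3 lower (median 2.55). Irgm2, a GTPase that marks vacuoles of intracellular pathogens, stood at 123 and 138 CPM in KO 0 h and 4.64 and 4.28 CPM in WT 2 h (4.87, SE 0.14), and Igtp, of the same family, at 68.8 and 76.7 CPM against 3.29 and 5.06 CPM (4.12, SE 0.17). The 3 lower members were guanylate-binding proteins. Gbp8 stood at 0.607 and 0.401 CPM in KO 0 h and 33.1 and 26.7 CPM in WT 2 h (-5.85, SE 0.36, edgeR adjusted p = 1.75e-15). Gbp9 stood at 15.2 and 17.8 CPM against 75.01 and 74.2 CPM (-2.18, SE 0.11), and Gbp4 at 7.67 and 8.76 CPM against 21.9 and 20.8 CPM (-1.38, SE 0.14). For all 3 the WT 2 h libraries were higher without overlap, while Gbp3, Gbp7 and Gbp2 were higher in KO 0 h by 3.41, 3.09 and 2.55 on the log2 scale. Guanylate-binding proteins lie in clusters of near-identical genes, so reads of single members are uncertain.

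Of the class I antigen presentation genes 7 of 19 were higher and 5 lower (median 0.19), shares near the 31.5% and 28.8% of all tested genes, and 6 and 4 without KO 0 h replicate 2. Tap1, a peptide transporter, stood at 62.7 and 68.8 CPM in KO 0 h and 12.7 and 12.9 CPM in WT 2 h (2.35, SE 0.12). B2m, the light chain of class I molecules, went the other way, at 391 and 455 CPM against 854 and 818 CPM (-0.98, SE 0.08), as did Nlrc5, the transactivator of class I genes (-0.99, SE 0.19). The class I heavy chains H2-D1 (-0.73) and H2-Q4 (-0.97) were lower in KO 0 h, with the same uncertainty from shared sequence, and H2-K1 did not pass (-0.07). Of 14 Parp, Dtx3l and TRIM genes 13 were higher and none lower (median 1.81, and the same counts without KO 0 h replicate 2). They included Dtx3l, a ubiquitin ligase (2.796, SE 0.09), its partner Parp9 (2.38), Parp14 (2.62, SE 0.11) and Trim21, an antibody receptor of the cytosol (2.65, SE 0.11).

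Of 14 chemokines and cytokines 9 were higher and 3 lower in KO 0 h (median 1.90). Ccl2, which attracts monocytes, stood at 175 and 172 CPM in KO 0 h and 7.07 and 6.28 CPM in WT 2 h (4.698, SE 0.12, edgeR adjusted p = 8.85e-19), and its neighbour Ccl7 at 79.97 and 91.4 CPM against 5.45 and 4.17 CPM. Cxcl10, an interferon-induced attractant of T cells, stood at 23.02 and 27.7 CPM against 0.108 and 0.889 CPM (5.66, SE 0.45), and Cx3cl1 at 38.9 and 38.8 CPM against 3.83 and 4.002 CPM. Cxcl12, which holds stem cells and leukocytes in stroma, had 274 reads over the KO 0 h libraries and 3 over the WT 2 h libraries, a ratio of 101 (exact 95% interval 34.1 to 492). None of these 5 chemokines overlapped between the groups, where 40% of all tested genes were higher without overlap. The 3 lower members were the cytokines Il11 (-1.17), Il6 (-1.08) and Lif (-0.83). By group means Ccl2 stood at 95.0 CPM in WT 0 h and 22.8 CPM in KO 2 h. Ccl7, Cx3cl1 and Cxcl12 were likewise higher in WT 0 h than in KO 2 h. Cxcl10, in contrast, stood at 0.564 CPM in WT 0 h and 6.37 CPM in KO 2 h. In the NF-kB list 2 of 16 were higher and 4 lower in KO 0 h than in WT 2 h, against 31.5% and 28.8% of all tested genes. The largest difference was that of the inhibitor Tnfaip3, at 6.46 and 6.88 CPM in KO 0 h and 39.8 and 34.01 CPM in WT 2 h (-2.47, SE 0.17).

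**Figure D2:**
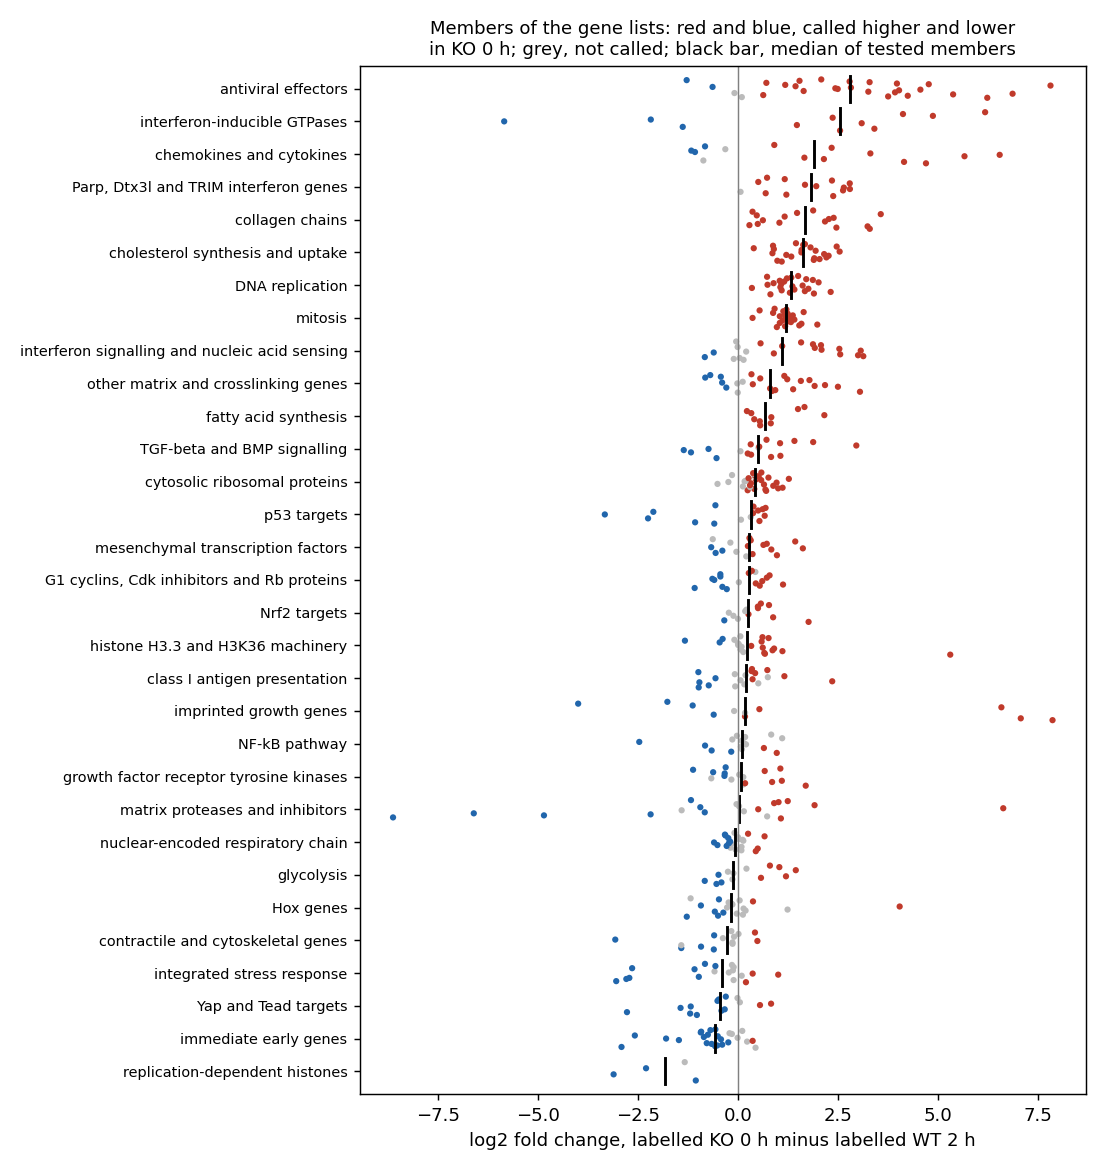
Log2 fold change (KO 0 h minus WT 2 h) of each tested member of 31 gene lists, in red where called higher, blue where called lower and grey where not called, with a black bar at the median of the list. The lists run from antiviral effectors (median 2.81) at the top to replication-dependent histones (median -1.82, 4 tested members) at the bottom; for genes without reads in a group the fitted value depends on the prior count.

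Most tested genes of the extracellular matrix were higher in KO 0 h. All 16 tested collagen chains were called higher and none lower (median 1.68), with 16 again without KO 0 h replicate 2 and 15 with library size alone. Col1a1 stood at 9424 and 8770.4 CPM in KO 0 h and 865 and 991 CPM in WT 2 h (3.29, SE 0.08, edgeR adjusted p = 2.12e-18), and Col1a2, its partner chain, at 11129 and 10769 CPM against 1892 and 2091 CPM (2.46, SE 0.08). Col3a1 (3.24, SE 0.08) and Col11a1 (3.57, SE 0.11), both of fibrillar collagens, were higher by similar folds, while the basement membrane chain Col4a1 (0.28) and Col16a1 (0.36) differed least. The groups did not overlap for any of the 16 chains, while 40% of all tested genes were higher in KO 0 h without overlap. Of 23 other matrix and crosslinking genes 15 were higher and 5 lower (median 0.80). Fbn1, the fibrillin of elastic microfibrils, stood at 462 and 465 CPM against 54.1 and 57.97 CPM (3.05, SE 0.08), and Fbln5, an elastic fibre protein, gave 2.497, SE 0.08. Sparc, a collagen-binding glycoprotein, gave 2.17, SE 0.08, and Bgn, a small proteoglycan, 1.57, SE 0.07. Fibronectin (Fn1) stood at 10481 and 11273 CPM in KO 0 h and 10570.3 and 11293 CPM in WT 2 h and did not pass (edgeR adjusted p = 0.946).

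Of the matrix proteases and their inhibitors 7 of 19 were higher and 7 lower, against 31.5% and 28.8% of all tested genes. The stromelysin Mmp3 had no reads in KO 0 h and 98 over the WT 2 h libraries, at least 29.7-fold lower in KO 0 h, and the collagenase Mmp13 had 0 and 24 reads, at least 7.28-fold lower. Mmp10 had 1 read and 39, a ratio of 35.3 (exact 95% interval 5.98 to 1431). Mmp3, Mmp13 and Mmp10 thus had at most 1 read each over the libraries labelled KO 0 h. The protease Adamts2 went the other way, with 112 reads over the KO 0 h libraries and 1 over the WT 2 h libraries. That is a ratio of 124 (exact 95% interval 21.7 to 4927). At least 2-fold differences were called for 5 members of the list in each direction. Timp1, an inhibitor of these enzymes, was higher in KO 0 h, at 345 and 278 CPM against 81.9 and 83.6 CPM (1.91, SE 0.09).

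In the list of TGF-beta and BMP signalling 11 of 17 were higher and 4 lower (median 0.51), and 7 and 4 with library size alone. Ltbp2, a matrix protein related to the binders of latent TGF-beta, stood at 314 and 307 CPM against 37.1 and 42.9 CPM (2.96, SE 0.09). The BMP target genes Id1 (1.05), Id2 (1.88) and Id3 (1.41) were higher in KO 0 h, and Skil, a repressor of Smad signalling, was lower (-0.74). Of 17 mesenchymal transcription factors 10 were higher and 3 lower, but 6 and 5 with library size alone, with Prrx2 higher (1.62, SE 0.11). Among 16 growth factor receptor kinases 6 were higher and 5 lower, against 31.5% and 28.8% of all tested genes. Pdgfra, a receptor of platelet-derived growth factor, stood at 250.0 and 246 CPM against 78.1 and 75.4 CPM (1.69, SE 0.08), and Epha2 was lower in KO 0 h (-1.12, SE 0.08).

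The genes of replication and mitosis were higher in KO 0 h. All 24 genes of DNA replication (median 1.31) and all 23 of mitosis (median 1.19) were called higher, and 23 each with library size alone. Mcm5, part of the helicase that unwinds DNA at forks, stood at 275 and 251 CPM in KO 0 h and 50.9 and 54.8 CPM in WT 2 h (2.32, SE 0.08, edgeR adjusted p = 2.46e-16), and Rrm2, of ribonucleotide reductase, at 195 and 200.4 CPM against 52.5 and 55.6 CPM (1.87, SE 0.08). Ccna2, a cyclin of S phase and mitosis, stood at 231 and 253 CPM against 58.7 and 63.7 CPM (1.98, SE 0.08). The kinase Plk1 (1.58, SE 0.09) and the proliferation marker Mki67 (1.21, SE 0.07) differed by less. Among 17 genes of the G1 machinery 8 were higher and 7 lower, against 31.5% and 28.8% of all tested genes. Ccne2, a cyclin of S phase entry, was higher (1.12, SE 0.14). The D-type cyclin Ccnd2 stood at 477 and 456 CPM in KO 0 h and 992 and 986 CPM in WT 2 h (-1.08, SE 0.07). The inhibitors Cdkn1a (-0.59) and Cdkn1b (-0.64) were lower. The letters TTTGAA, on either strand, were found in 75% of the 20 promoters of mitosis genes and in 17.9% of all promoters. Among promoters of tested genes the share was 12.3%. It was 18.7% for genes at least 2-fold higher in KO 0 h and 12.7% for those at least 2-fold lower.

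Sterol and lipid synthesis followed the same direction, with 23 of 23 tested genes of cholesterol synthesis and uptake higher (median 1.63, and 22 with library size alone) and 10 of 10 of fatty acid synthesis (median 0.69, and 8 with library size alone). Sqle, the squalene epoxidase, stood at 316 and 317 CPM in KO 0 h and 64.4 and 67.2 CPM in WT 2 h (2.26, SE 0.08). Nsdhl, which removes methyl groups from sterols, stood at 109 and 108 CPM against 19.5 and 17.8 CPM (2.54, SE 0.09). Srebf2, the regulator of these genes, was higher too (1.67, SE 0.07). None of the 19 promoters of the list, from 16 of its 23 genes, held TCACNCCAC, which 1.24% of all promoters hold. At that share no match is likely among 19 promoters, so this cannot tell the list from other genes. Of 30 cytosolic ribosomal proteins 21 were higher and none lower (median 0.42), but 15 and 2 with library size alone, with Rpl8 at 1.11, SE 0.09. Ribosomal proteins have many processed copies, so their counts are uncertain. Of the glycolysis genes 5 of 13 were higher and 4 lower, near the shares over all tested genes (31.5% and 28.8%), with Ldha higher (1.03, SE 0.09) and Hk2 lower (-0.83, SE 0.08). Of the nuclear-encoded respiratory chain 4 of 22 were higher and 8 lower, or 4 and 4 without KO 0 h replicate 2.

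Most immediate early genes and part of the stress response genes were lower in KO 0 h. Of 25 immediate early genes 18 were lower and 1, Egr3, was higher (0.36), a call lost under most alternatives. Fosb, an AP-1 subunit, stood at 5.35 and 4.54 CPM in KO 0 h and 37.02 and 38.01 CPM in WT 2 h (-2.91, SE 0.15), and the phosphatase Dusp1 at 13.96 and 15.7 CPM against 86.6 and 90.4 CPM (-2.58, SE 0.10). In contrast, Fos gave 0.44 and Myc 0.11, neither past the test. Of 18 genes of the integrated stress response 8 were lower and 3 higher, and 13 and 1 with library size alone. Ddit3, which acts in cell death after endoplasmic reticulum stress, stood at 23.3 and 20.5 CPM in KO 0 h and 189 and 173 CPM in WT 2 h (-3.05, SE 0.10, edgeR adjusted p = 6.91e-17). Ppp1r15a, which restores translation, stood at 12.03 and 11.6 CPM against 72.7 and 75.4 CPM (-2.65, SE 0.11). The pseudokinase Trib3 (-2.79, SE 0.14) and Chac1, which degrades glutathione (-2.72, SE 0.16), were lower by similar folds, while Psat1 (1.004) and Phgdh (0.37), of serine synthesis, and the factor Atf4 (0.20) were higher.

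Of the p53 targets 7 of 15 were higher and 6 lower, against 31.5% and 28.8% of all tested genes. Gadd45a stood at 6.13 and 4.81 CPM in KO 0 h and 57.4 and 53.6 CPM in WT 2 h (-3.33, SE 0.16), and the p53 ligase Mdm2 at 203 and 213 CPM against 439.7 and 436 CPM (-1.07, SE 0.07). The members that were higher differed by 0.69 at most. Of 14 Yap and Tead targets 10 were lower and 2 higher (median -0.45). Ankrd1 stood at 160.3 and 145 CPM in KO 0 h and 1071 and 1019 CPM in WT 2 h (-2.78, SE 0.08), and Cyr61, a matricellular protein, at 444 and 380.3 CPM against 934 and 957 CPM (-1.197, SE 0.08), without overlap in either. The Tead letters CATTCC were found in 8 of the 10 promoters of this list, which was chosen as Tead targets, and in 14.7% of all promoters. Among promoters of tested genes the share was 12.4%. It was 14.7% for genes at least 2-fold higher in KO 0 h and 13.8% for those at least 2-fold lower. Of 14 contractile genes 5 were lower and 2 higher, but 9 and 1 with library size alone or without KO 0 h replicate 1, with Tagln, an actin-binding protein, at 111 and 86.9 CPM against 266 and 264 CPM (-1.42, SE 0.10). Nqo1, an Nrf2 target, was higher in KO 0 h (1.76, SE 0.10) among 7 higher and 1 lower of 13 such genes (6 and 3 with library size alone).

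Of 22 genes of histone H3.3 and lysine 36 methylation, a list that counts Zmynd11 itself, 11 were higher and 3 lower. The H3.3 genes H3f3a and H3f3b gave 0.67, SE 0.11 and 0.66, SE 0.08. Daxx, a chaperone of H3.3 that is itself induced by interferon, stood at 91.1 and 89.2 CPM in KO 0 h and 42.7 and 40.8 CPM in WT 2 h (1.11, SE 0.08). The methyltransferase Nsd1 was higher (0.90, SE 0.15), Phf1, another reader of methylated lysine 36, was lower (-1.33, SE 0.13), and Setd2, which writes trimethyl marks, did not pass (0.06). Of the replication-dependent histones 4 were tested and 3 were lower (median -1.82), with Hist1h2bc at 0.718 and 0.735 CPM in KO 0 h and 6.799 and 5.84 CPM in WT 2 h. Of 19 Hox genes 2 were higher and 6 lower, against 31.5% and 28.8% of all tested genes, and both counts fell without KO 0 h replicate 2.

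The fold changes were set beside those of KO 2 h against WT 0 h, the other comparison across both labels, which shares no library with this one. There edgeR called 7975 of the 12807 genes (62.3%), 3949 higher (30.8%) and 4026 lower (31.4%), with 11.8% at least 2-fold higher. Across the 12807 genes, which are not independent replicates, the log2 fold changes of the 2 comparisons correlated negatively (Pearson's r -0.766, Spearman's rho -0.829). Zmynd11, whose levels helped choose the groups, itself went opposite ways in the 2 comparisons. The opposite direction of genes that move with Zmynd11 is therefore not independent of that choice. Of 6584 genes called in both, 3353 were higher in KO 0 h and lower in KO 2 h, 3080 were lower in KO 0 h and higher in KO 2 h, 149 were higher in both and 2 lower in both. The difference between the comparisons was called for 9089 genes (71%), and their mean for 284 genes higher (2.22%) and 27 lower (0.211%). The genes of collagen, replication, mitosis, cholesterol and fatty acid synthesis had opposite directions. All 16, 24, 23, 23 and 10 of them were lower in KO 2 h than in WT 0 h, and for each gene of these 5 lists the difference between the comparisons was called. Of the 93 interferon-related genes, in contrast, 79 were higher and 4 lower in KO 2 h, and the mean of the 2 comparisons was higher for 74. Of the 14 chemokines and cytokines 6 were higher and 7 lower in KO 2 h (median -0.44).

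**Figure D3:**
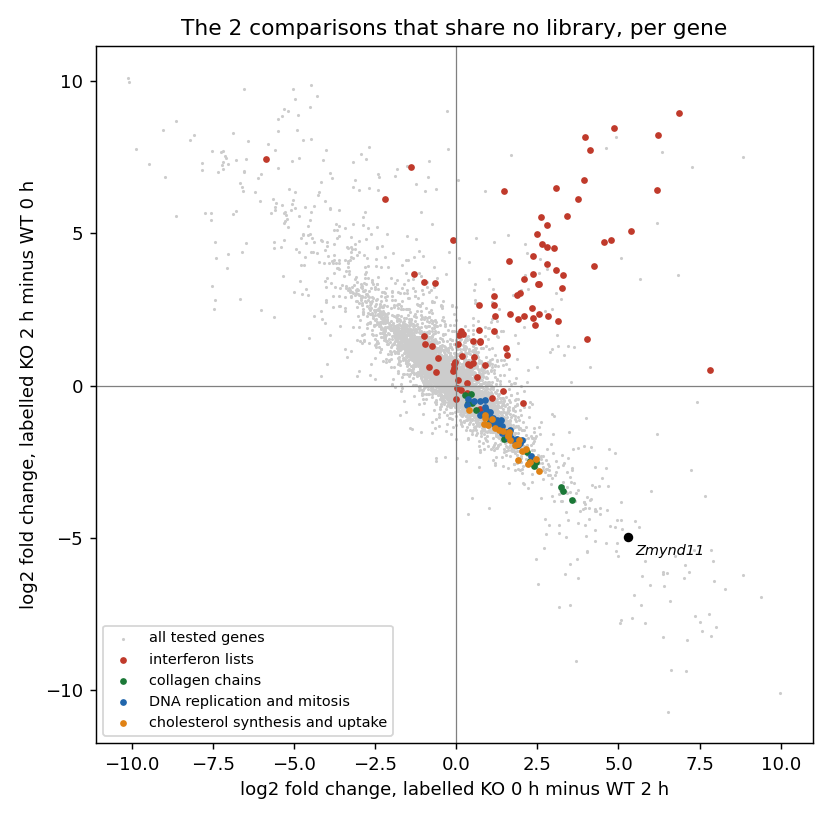
Log2 fold change of each tested gene in KO 0 h against WT 2 h (x axis) and in KO 2 h against WT 0 h (y axis), with 4 sets of genes coloured. Most genes fall along a descending diagonal with Zmynd11 (5.30 and -4.96), as do the coloured collagen, cell division and cholesterol genes, while most of the interferon lists lie at the upper right.

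At least 2-fold differences in the same direction were found for 89 genes, all higher, of which 49 are on the interferon lists. The response element described above was found in 53.01% of the 83 RefSeq promoters of these genes, against 2.61% of 766 promoters of genes at least 2-fold higher in KO 0 h and at least 2-fold lower in KO 2 h. These 89 genes include Ifit1, which chose the groups, and the 49 list members were listed as interferon-related. The share is therefore not independent of those choices. Among the 40 genes outside the lists, chosen by this count after their values were seen, were Helz2 (2.57 here and 4.15 in the other comparison), Slfn8 (6.199 and 5.32) and the DNA sensing genes Ifi202b (3.64 and 1.27) and Ifi204 (3.13 and 1.29). Usp18, which removes Isg15 from proteins, gave 3.97 here and 8.17 there, and the difference was called (edgeR adjusted p = 2.58e-11). Isg15 gave 4.24 and 3.92, a difference that did not pass (edgeR adjusted p = 0.138).

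Gbp8, Gbp9, Gbp4, B2m, Nlrc5 and Bst2, which were lower in KO 0 h, were all higher in KO 2 h, by 7.42, 6.13, 7.18, 1.62, 3.42 and 3.36 on the log2 scale, and for each the difference between the comparisons was called. The level of Gbp9 was 1.91 and 2.75 CPM in WT 0 h and 167 and 159.6 CPM in KO 2 h, so the WT 2 h libraries lay between these groups. Of the 1147 genes at least 2-fold higher in KO 0 h, 94 were not called in the other comparison, and for 78 of them the difference was called. Ifi44 is one of these, at 1.66 and 1.52 CPM in WT 0 h and 2.07 and 2.59 CPM in KO 2 h (0.52 there). Tnfsf10, the ligand of a death receptor, is another, at 9.82 and 11.3 CPM in KO 0 h, 0.108 and 0 in WT 2 h, 1.61 and 1.23 in WT 0 h and 0.965 and 0.981 in KO 2 h. Both stood highest in the KO 0 h libraries. The 2 genes lower in both comparisons were Cacnb1 (-0.51 here) and Nol6 (-0.23), a count that ran from 0 to 10 when single libraries were left out.

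Among genes that reached 1 CPM on average in the higher group, the following were among the largest differences. Dlk1, a membrane protein of preadipocytes encoded by an imprinted gene, stood at 219 and 243 CPM in KO 0 h and 0.702 and 1.28 CPM in WT 2 h (7.86, SE 0.24, edgeR adjusted p = 1.11e-20). Of 11 tested imprinted growth genes 5 were higher and 4 lower. Igf2, a growth factor among them, had 153 reads over the KO 0 h libraries and 1 over the WT 2 h libraries, a ratio of 169 (exact 95% interval 29.9 to 6715). Cacna1g, a calcium channel, had 355 and 1, a ratio of 392 (69.9 to 15524). Chi3l1, a secreted chitinase-like protein, had no reads in WT 2 h and was at least 82.9-fold higher in KO 0 h, at 8.67 and 4.95 CPM. Lower in KO 0 h were Pcdh9, a protocadherin, with no reads in KO 0 h and at least 82.6-fold lower there than in WT 2 h (8.47 and 6.503 CPM), the casein gene Csn3 (at least 69.9-fold) and Gabrg1, a receptor subunit for the transmitter GABA (at least 39.0-fold). Without reads in 1 group and with at least 10 reads in each library of the other were 12 genes for WT 2 h and 32 for KO 0 h.

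Runs of neighbouring tested genes that each differed at least 8-fold in the same direction were counted after the values had been seen. There were 36 such runs with 82 genes, 16 higher and 20 lower in KO 0 h, and the longest held 4 genes. One run of 4 genes, on chromosome X, held Msl3, Hccs, Mid1 and G530011O06Rik. Msl3, of a complex that acetylates histone H4, stood at 78.4 and 71.5 CPM in KO 0 h and 0.324 and 0.333 CPM in WT 2 h, Hccs, which attaches haem to cytochrome c, at 44.7 and 47.9 CPM against 0.162 and 0.333 CPM, and the ubiquitin ligase Mid1 at 22.7 and 24.5 CPM against 2.75 and 2.17 CPM. All were low in both groups labelled 2 h, with Msl3 at 0.2298 and 0.5603 CPM in KO 2 h. On chromosome 12 Dlk1 was followed by Rtl1 and 3110009F21Rik, and on chromosome 1 the interferon-induced Ifi203, Ifi202b and Ifi205 lay in a run. Oasl2 and Oasl1, Mx1 and Mx2, Gbp7 and Gbp3, and Ccl2 and Ccl7 also formed runs higher in KO 0 h. Runs lower in KO 0 h held, among others, Mmp3 and Mmp10, and Clec5a and Mgam, an intestinal sugar-splitting enzyme that stood at 0.166 and 0.468 CPM in KO 0 h and 41.2 and 38.9 CPM in WT 2 h.

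By chromosome, 12741 of the tested genes could be placed by symbol. Among chromosomes with enough tested genes for a median, X, 15 and 18 stood apart from the rest. The median log2 fold change was 0.74 over 415 genes of chromosome X, of which 68.9% were called higher and 8.67% lower, and 0.59 over 504 genes of chromosome 15 (62.1% and 9.33%). On chromosome 18 it was -0.63 over 362 genes (8.01% higher and 64.9% lower). The medians of the other chromosomes ran from -0.18 to 0.30, without Y, which had too few tested genes. On Y, Ddx3y stood at 2.80 against 0.0270 CPM by the group means (6.37) and Eif2s3y at 1.17 against 0.0270 CPM (5.09). Both were also higher in WT 0 h (2.08 and 0.735 CPM) than in KO 2 h (0 and 0.0350 CPM). Between single pairs of 1 KO 0 h and 1 WT 2 h library, on log2 CPM with a pseudocount of 0.5, the medians ran from 0.65 to 0.76 for X, 0.52 to 0.59 for 15 and -0.60 to -0.53 for 18, so each of the 4 pairs gave the same direction. With library size alone the medians were 0.58, 0.43 and -0.79. In KO 2 h against WT 0 h the medians were -0.64 for X, -0.60 for 15 and 0.69 for 18. The chromosome's part in the difference of single genes such as Sqle on 15 or Nsdhl on X was not tested.

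**Figure D4:**
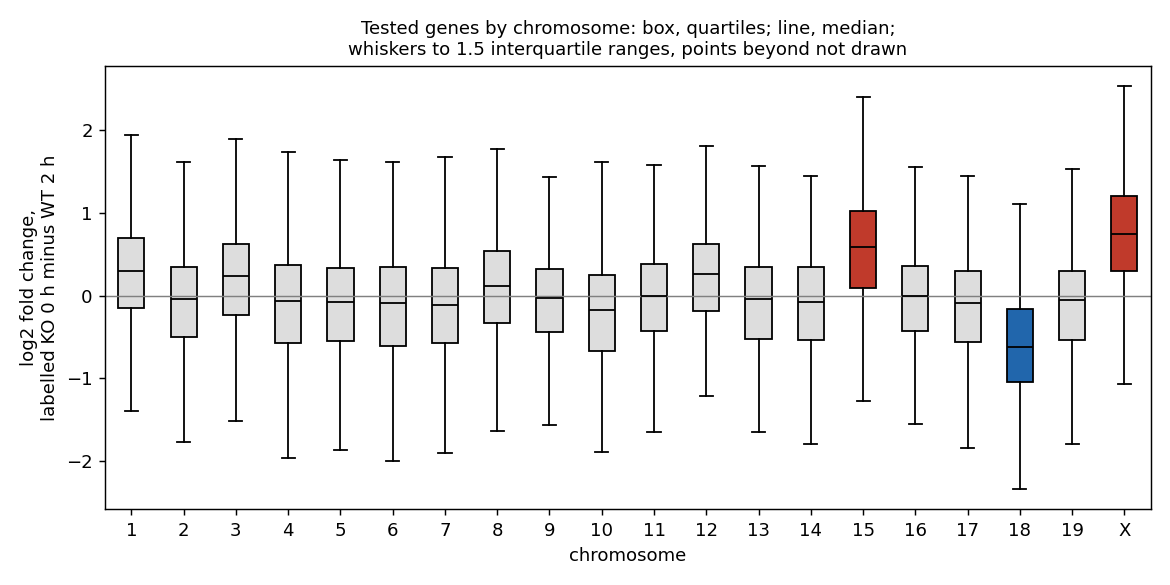
Log2 fold change (KO 0 h minus WT 2 h) of tested genes by chromosome; boxes span the quartiles, the line is the median, and whiskers reach to 1.5 interquartile ranges. Chromosomes X (median 0.74) and 15 (0.59), in red, lie above the other chromosomes drawn and 18 (-0.63), in blue, lies below them. Chromosome Y is not drawn.

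The cells were checked against markers. Summed levels of 11 fibroblast markers were 42515 and 41451 CPM in KO 0 h and 18652 and 19777 CPM in WT 2 h, with 7 of 10 tested members higher and 1 lower. This sum is not separate from the collagen result, since the list holds Col3a1, Col1a1 (group means 9097 against 928 CPM) and Col1a2 (10949 against 1992 CPM). Fn1, also on the list, did not pass. Vim, an intermediate filament of mesenchymal cells, stood at 6777 and 6273 CPM against 4023 and 4113 CPM. The sums for macrophages and leukocytes were 46.4 and 72.6 CPM against 56.1 and 54.7 CPM, with no tested member called (6 tested) and Cd3e, a marker of T cells, without reads in the 4 libraries. Endothelial markers summed to 3.20 and 5.08 CPM against 12.6 and 13.9 CPM (1 of 5 higher and 1, Vwf, lower, -4.14, SE 0.49), and skeletal muscle markers to 2.1525 and 2.41 CPM against 16.3 and 16.6 CPM, where Des was the only tested member (-3.07, SE 0.21). Epithelial markers summed to at most 7.62 CPM (2 of 2 tested higher), neuronal markers to at most 3.81 CPM (1 of 3 higher, 1 lower) and erythroid markers to at most 1.10 CPM (0 of 1 called), with the globin genes Hbb-b1, Hbb-b2 and Hba-a1 at 0. Adipocyte markers summed to 76.3 and 87.0 CPM against 133 and 119 CPM (Lpl, the only tested member, was lower), and cartilage and bone markers to 216 and 258 CPM against 194 and 194 CPM (1 of 2 tested higher, and none without KO 0 h replicate 2). The counts of these small lists moved by at most 2 when single libraries were left out, as for the macrophage markers, of which 2 were higher without KO 0 h replicate 1. The part of these markers in the results was not tested.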

How the data were processed

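RNA of 8 libraries was sequenced, and the authors deposited whole-number read counts per gene symbol for each library. Per the submitters' processing notes the tools were bcl2fastq 2.15, STAR 2.5.2b and HTSeq, with build mm9; the sources used here give no settings, nor whether counting used strand. Lines that name no gene took 36.9% to 43.2% of the reads and were left out. The genes, gene lists and groups were chosen with earlier results of these data known.

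Counts were analysed in R 4.3.3 with edgeR 4.0.16 (limma 3.58.1). Genes were kept by edgeR's filter (minimum count 10, minimum total 15), scaled by TMM factors and fitted by quasi-likelihood with 1 coefficient for each of the 4 groups over all 8 libraries, which leaves 4 residual degrees of freedom (biological coefficient of variation 6.74%). P-values were adjusted by Benjamini-Hochberg over the 12807 tested genes, with a threshold of 0.05. CPM values use the TMM-scaled library sizes, and 1 read is worth 0.0540 to 0.0668 CPM in the 4 libraries. The fitting was tested on simulated data in which few genes differed, with directions drawn at random. In the deposited counts 60.3% of tested genes were called, so the simulation does not test the composition scaling here.

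Genes were named by rule: Zmynd11 and Ifit1, the largest fold changes and CPM differences, up to 4 called members per list, the largest changes shared by or opposite in both comparisons, and genes without reads in 1 group; further list members are named as examples. A few genes picked by this rule are left out. Runs of neighbours and the folds of genes with 3 reads or fewer (exact 95% intervals, counting error only) were added after the data were seen. Genes were placed on chromosomes by symbol in RefSeq GRCm38.p6 (12741 of 12807), and promoters of the same build were matched for 10121 of the tested genes. Alternatives were relative log expression factors, library size alone, DESeq2 1.42.0, no filter or a filter of 1 CPM, testing against a fold of 1.5, a replicate block, the 4 libraries alone, and leaving out each library.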

Additional observations from a re-analysis of the deposited data

How the results depend on the processing

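None of the 167 genes picked by the naming rule changed direction under the 11 or 12 alternatives run for each. They were picked from the same counts, mostly for large differences, so this was likely in advance. The count of called genes for KO 0 h against WT 2 h (7723) was within 1.5 times of itself under every alternative but the test against a fold of 1.5. It was 7196 with DESeq2, 7737 with relative log expression factors, 7870 with library size alone, 7637 without a filter, 7609 with a filter of 1 CPM, 7484 with the 4 libraries alone and 6626 to 7262 when single libraries were left out. Against a fold of 1.5 it was 2976 (1508 higher and 1468 lower), and for KO 2 h against WT 0 h it was 3090 (1659 and 1431). With that test the mean of both comparisons gave 127 genes higher and 0 lower, 85 genes were higher in both, 0 lower in both, and 1156 and 1176 opposite. The 27 genes lower in the mean became 45 with library size alone, 84 without a filter and 3 to 114 when single libraries were left out (114 without KO 0 h replicate 1, 3 without WT 2 h replicate 2). The 2 genes lower in both became 5 with library size alone, 1 with DESeq2, 1 with the replicate block and 0 to 10 when single libraries were left out. The cause was not tested. Of 2000 values of these 167 genes under the alternatives 16 lost the call, 15 of them against a fold of 1.5 and 1, Hoxa7, without KO 0 h replicate 2 (edgeR log2 fold change -0.38, adjusted p = 0.109). Of 960 list counts 93 moved by over 1.5 times.

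Libraries of the same replicate number did not deviate together (correlations of deviations from the group means -0.0533 to -0.0053 across genes). The labels do not say that the numbers mark a pairing. With the replicate block edgeR called 7498 genes, 3924 higher and 3574 lower. With 2 libraries per group, leaving 1 out leaves a lone library that is assumed to vary like the other groups. Depth limits genes below 3 reads, or 0.162 to 0.200 CPM per library.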
